A study of Caenorhabditis elegans with 12 samples.

Results

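Among the genes measured in libraries of sorted BAG neurons, 200 ran most strongly against the amount of BAG-specific RNA in a library, and they are described here. They were chosen by their values: log2(normalized count + 1) was taken for each gene, the mean of each genotype was subtracted, and a BAG index was formed as the mean of gcy-9, gcy-33, flp-17 and ets-5 in each library. Of the 2888 genes with a mean normalized count of at least 100, out of 22542 listed, the 200 with the lowest Pearson r with that index over the 12 libraries became the members. A normalized count is the number of reads of a gene divided by the size factor of its library. All statements on how members vary between libraries of a genotype therefore describe the choice itself and carry no test, while the difference between genotypes was removed before the choice and could be tested.

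Day 1 adults of a strain with the arcp-1 allele db1082, called arcp-1 mutants below, were set against controls without it, with 6 replicates each. Both strains carry npr-1(ad609), and so lack the neuropeptide receptor NPR-1, and ynIs64, the flp-17p::gfp transgene by which dissociated cells were sorted, so the gate marks cells in which the flp-17 promoter is active. No library of another cell type or of unsorted cells was analysed here. Libraries were made by Smart-seq2, a protocol for small inputs in which the cDNA is amplified by PCR, so that copies of a molecule are counted as separate reads.

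BAG neurons are a pair of ciliated head neurons that sense CO2 through the receptor guanylate cyclase GCY-9 and release FLP-17 neuropeptides; the transcription factor ETS-5 sets many of their genes. RNA of other tissues can reach a sorted sample through cells that pass the gate or through RNA set free during dissociation. The gonad fills much of the adult hermaphrodite, with a germline rich in RNA-binding proteins, oocytes that take up yolk and build the eggshell, and a surrounding sheath and uterus.

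The label of the group was checked against BAG markers that the index did not use. Of 10 such markers, 6 had a mean normalized count of at least 100, none of them was a member, and all 6 had r above 0. gcy-31, a soluble guanylate cyclase subunit of BAG, had r = 0.97. pde-1, a phosphodiesterase of cyclic nucleotides, had 0.91, and egl-13, a Sox transcription factor of BAG fate, also had 0.91. The peptide gene flp-19 was lowest of the 6 at 0.02. Its normalized counts ran from 1241 to 6142 with a median of 2895 in arcp-1 mutants, against 771 to 2364 with a median of 1209 in controls. Of the 4 markers under the limit, glb-5 had r = 0.87 and tax-4 0.76, while the peptide genes flp-13 and flp-10 had 0.33 and -0.23. Over all 12 libraries, the markers outside the index thus ran with it except for the peptide genes flp-19 and flp-10, and flp-13 did so weakly. With replicate 1 of both genotypes left out, r was 0.93 for gcy-31, 0.91 for egl-13, 0.85 for glb-5 and 0.70 for pde-1. It was 0.65 for tax-2 and 0.64 for tax-4. eat-4 fell from 0.77 to 0.10, and flp-19 fell to -0.85. Within a genotype, flp-19 had r = 0.50 in arcp-1 mutants and -0.68 in controls.

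In arcp-1 mutants, the index of replicates 1 to 6 lay at -1.60, -0.34, 0.45, 0.21, 0.77 and 0.51 from the mutant mean on the log2 scale. In controls, the index of replicates 1 to 6 lay at -1.21, -0.49, 0.33, 0.29, 0.61 and 0.47 from the control mean. Replicate 1 had the lowest index in each genotype and replicate 2 the next lowest. The mean of the 200 members lay at 1.13, 0.22, -0.21, -0.17, -0.59 and -0.39 in arcp-1 mutants. In controls it lay at 1.00, 0.24, -0.28, -0.22, -0.49 and -0.25. The order of the libraries was the reverse of that of the index at both ends: replicate 1 was highest and replicate 5 lowest in each genotype.

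**Figure D1:**
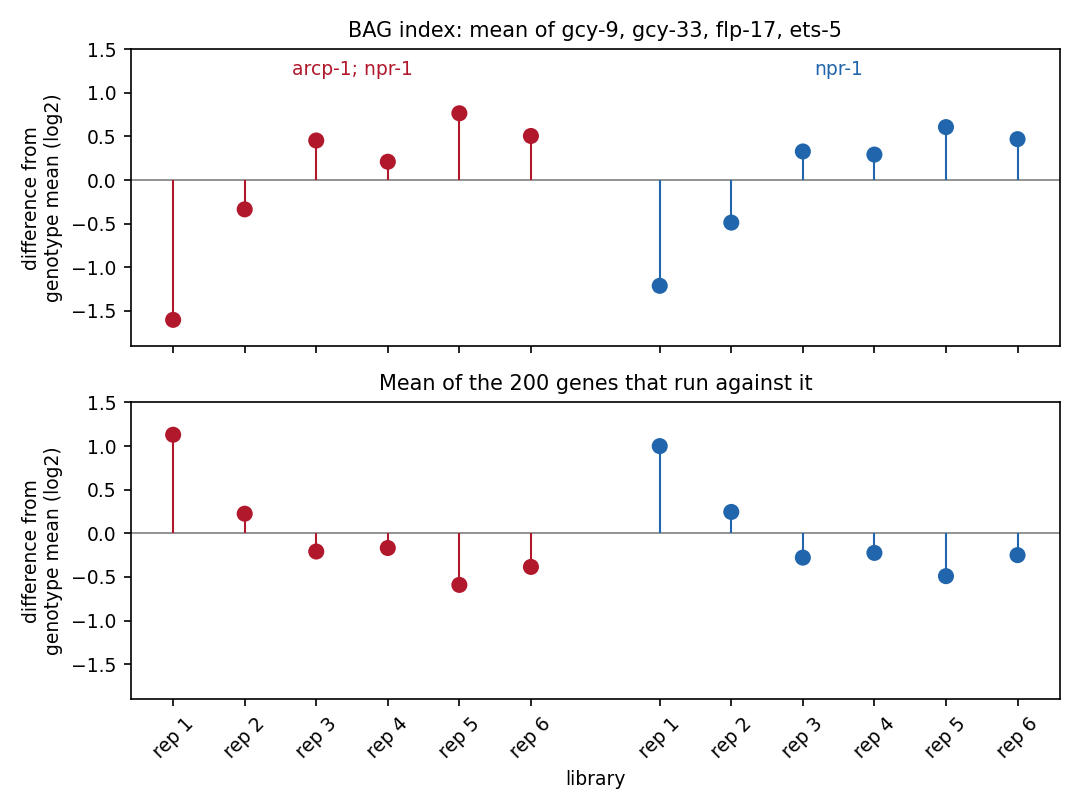
BAG index (top) and mean of the 200 members (bottom) in each library, as the difference from the mean of its genotype on the log2 scale; red, 6 arcp-1; npr-1 libraries, blue, 6 npr-1 libraries. Replicate 1 has the lowest index in each genotype, -1.60 and -1.21, and the highest mean of the members, 1.13 and 1.00.

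The libraries of replicate 1 stood apart. In both genotypes, 173 of the 200 members were highest in replicate 1. Over all 200, replicate 1 lay at a median of 2.24 times the median of the other 5 libraries in arcp-1 mutants and 2.03 times in controls. The members took 4.85% of all TPM (a length-corrected share of the transcripts) in replicate 1 of arcp-1 mutants and 1.78% to 2.90% in the other 5 mutant libraries. In controls they took 4.69% in replicate 1 and 2.11% to 3.74% in the other 5. With both replicate 1 libraries left out, a calculation added after the data were seen, 194 of the 200 members still had r below 0 and the median r was -0.61, against -0.83 over all 12 libraries. Ranking anew without them kept 89 of the 200 members among the lowest 200. In replicates 3 to 6 alone, 146 members had r below 0 with a median of -0.40. The libraries of both subsets had a part in the choice of the members. Values of r without replicate 1, here and by role group below, are therefore no separate check. The share of all 2888 genes with r below 0 was not taken in these subsets. In a bulk sample, fewer BAG cells and less BAG RNA per cell cannot be told apart.

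The members' mean had r = 0.10 with log library size over the 12 libraries. Reads ranged from 374550 to 8683395 in arcp-1 mutants and from 540884 to 7594719 in controls. Replicate 1 was the deepest of the arcp-1 mutant libraries, with 8683395 reads, but among the shallow libraries of the controls, with 952110 reads. The summed level of 16 pan-neuronal genes in replicate 1 was 8784 TPM in arcp-1 mutants, the lowest of the mutant libraries, and 16844 TPM in controls, the lowest of the controls. Some tissue markers differed between the 2 libraries of replicate 1. Sperm genes summed to 4448 TPM in replicate 1 of arcp-1 mutants, the highest of that genotype, and to 239 TPM in replicate 1 of controls, the lowest. Hypodermis and seam genes summed to 22349.6 TPM in replicate 1 of arcp-1 mutants, where another library was higher, and to 46134 TPM in replicate 1 of controls, the highest there. Their part in the members' levels was not tested.

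Over the 2888 genes, 1176 had r below 0, with a median of 0.19 over all. The members spanned -0.97 to -0.75 with a median of -0.83, and 39 of them lay below -0.9. At the limit of the choice, haly-1 (r = -0.7491) and unc-132 (-0.7490) were the last members, and tfg-1 and tcc-1 (both -0.7487) were the first genes left out. No gap in r separated the members from the other genes. All 200 had r below 0 within each genotype taken alone, down to -0.99 and up to -0.62 in arcp-1 mutants and -0.21 in controls. The choice used these same libraries, so this follows closely from it and is no separate check.

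**Figure D2:**
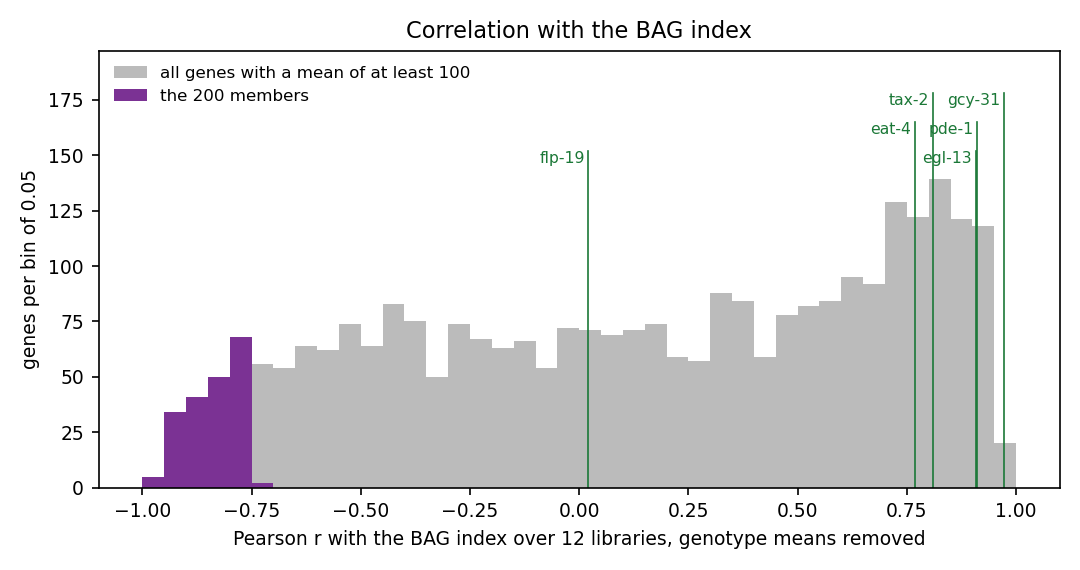
Number of genes per bin of 0.05 of Pearson r with the BAG index, for the 2888 genes with a mean normalized count of at least 100 (grey) and the 200 members (purple); green lines mark the 6 BAG markers outside the index that pass the same limit. The members are the left tail of a broad distribution, and 5 of the 6 markers lie above 0.7, with flp-19 near 0.

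The lowest r belonged to Y54G11A.3, a gene with no role given here, at -0.97. Its normalized counts ran from 38.4 to 258 with a median of 64.8 in arcp-1 mutants, and from 55.2 to 318 with a median of 83.1 in controls. D1054.10, next at -0.96, ran from 86.5 to 1575 with a median of 172 in arcp-1 mutants, and from 95.3 to 754 with a median of 172 in controls. Both genes were highest in replicate 1 of each genotype, and the ranges of the genotypes overlapped. got-2.2, an aspartate aminotransferase that links amino acid and energy metabolism, was tighter, at 108 to 269 with a median of 131 in arcp-1 mutants and 106 to 289 with a median of 165 in controls. The remaining 7 of the 10 lowest were nol-58, a core protein of small nucleolar RNPs, csr-1, a germline Argonaute, cbd-1, a chitin-binding protein of the eggshell, lea-1, a relative of the plant late embryogenesis abundant proteins, the actin crosslinker filamin (fln-1), the lipid transfer protein vps-13, and pgl-1, a P granule protein. Their r lay between -0.96 and -0.94. Of these 7, csr-1 had the largest step in arcp-1 mutants and cbd-1 in controls. csr-1 had 421 in replicate 1 of arcp-1 mutants and at most 72.8 in the other mutants, against 191 in replicate 1 of controls and at most 115 in the other controls.

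**Figure D3:**
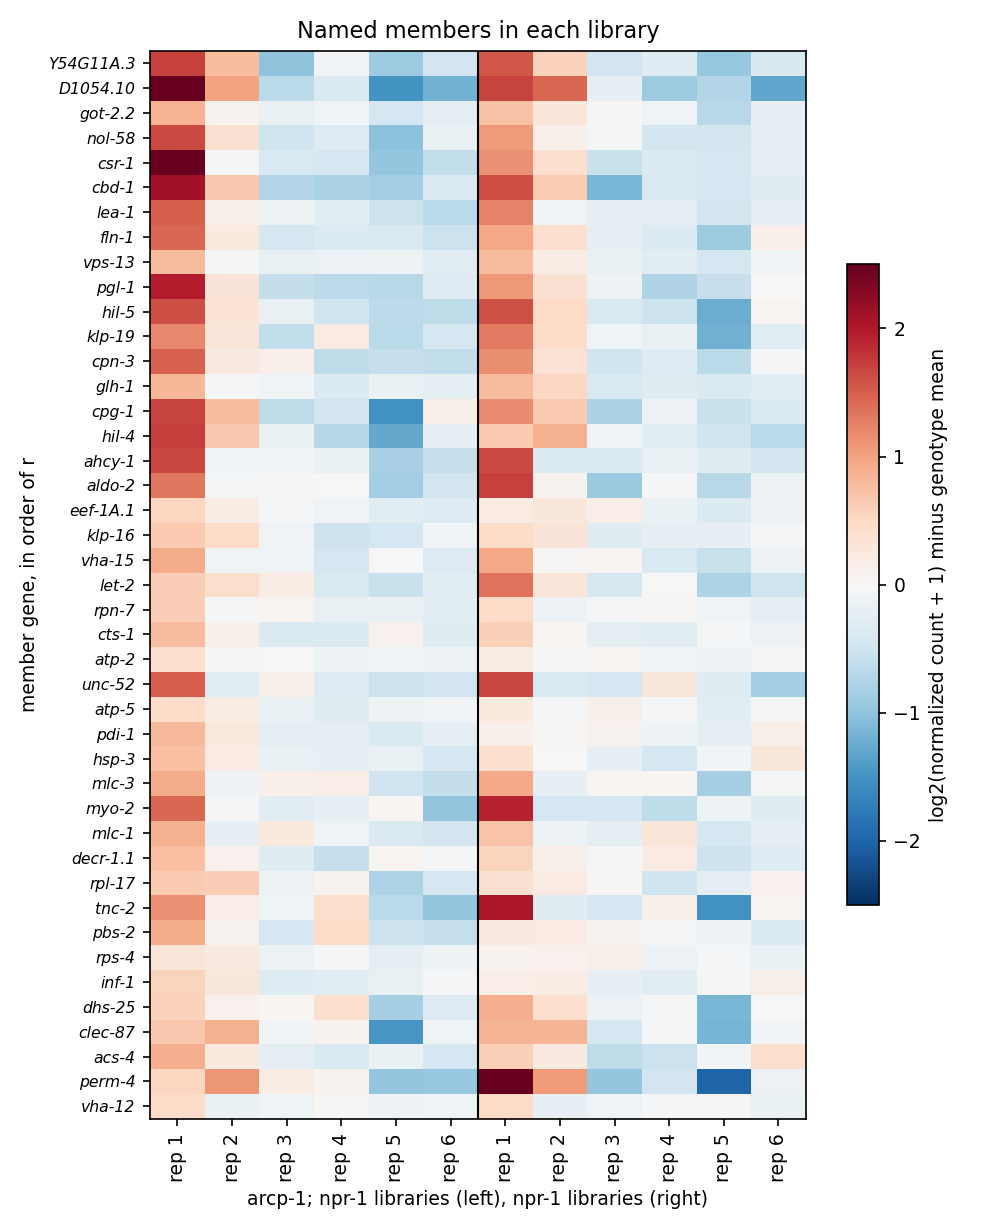
Named members (rows, in order of r) in each library (columns, 6 arcp-1; npr-1 libraries left, 6 npr-1 libraries right), coloured by log2(normalized count + 1) minus the genotype mean; 2 values beyond 2.5 are drawn at the end of the scale. Replicate 1 is red in every row of both genotypes, replicate 2 in most, and replicate 5 is blue in nearly all.

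Germline and oocyte genes stood out in the list, which was made with earlier results of these data known. Of the 18 markers of germline and oocytes, 6 had a mean of at least 100 and all 6 were members, against 6.93% of all 2888 genes: glh-1, pgl-1, cpg-1, cpg-2, puf-5 and rme-2. The other 12 markers were too low to be chosen, and all 12 had r below 0 as well, with a median of -0.80. glh-1, a Vasa-like RNA helicase of P granules, had normalized counts of 380 to 855 with a median of 445 in arcp-1 mutants and 471 to 1072 with a median of 504 in controls. cpg-1, a chondroitin proteoglycan of the eggshell, ran from 75.7 to 707 with a median of 200 in arcp-1 mutants and from 223 to 873 with a median of 328 in controls. Replicate 1 was highest for both genes in both genotypes. The 18 markers together gave 246 to 1324 TPM in arcp-1 mutants and 445 to 1106 TPM in controls, with the highest value of each genotype in replicate 1. Markers of sperm gave no member among 5 measured genes. Yolk protein genes gave none among 3, although all 3 had r below 0, with a median of -0.52. Lists of 5 or 3 genes would hold few members or none at 6.93% of all 2888 genes. The absence of members therefore does not set sperm or yolk protein genes apart from other genes.

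The members were also grouped by known role, after their values had been seen. The germline RNA regulators were 12: the Argonautes csr-1, hrde-1 and prg-1, the last a Piwi protein, the P granule proteins pgl-1 and glh-1, the helicase cgh-1 and its partner car-1, the germline form of eIF5A, iff-1, the RNA-binding protein puf-5, the Y-box proteins cey-2 and cey-3, and vig-1. Their summed level was 490 to 1844 TPM with a median of 624 in arcp-1 mutants, and 698 to 1421 TPM with a median of 790 in controls. Replicate 1 held 1844 TPM in arcp-1 mutants, the highest there, and 1288 TPM in controls, where another library was higher. Within the group, hrde-1, a nuclear Argonaute of inherited silencing, had the largest step in arcp-1 mutants, with replicate 1 at 11.8 times the median of the others, against 4.46 times in controls. Without replicate 1, all 12 kept r below 0, with a median of -0.76.

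Eggshell and yolk uptake held 6 members: cbd-1, cpg-1, cpg-2, the chitin synthase chs-1, the yolk receptor rme-2, and perm-4, named for its part in the eggshell's permeability barrier. They summed to 482 to 1932 TPM with a median of 960 in arcp-1 mutants and to 726 to 7440 TPM with a median of 1578 in controls. Most of this was perm-4, one of the 10 members with the highest TPM, whose mean was 821 ± 448 TPM in arcp-1 mutants and 2292 ± 2395 TPM in controls (SD, n = 6 each). perm-4 had 15976 normalized counts in replicate 1 of controls and at most 5766 in the other controls, while in arcp-1 mutants it ran from 690 to 2867. Its highest mutant library was replicate 2, so perm-4 did not follow the replicate 1 pattern in that genotype. Without replicate 1, all 6 members kept r below 0, with a median of -0.75.

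Several members were neighbours on a chromosome: 10 clusters, with at most 10000 bases between genes, held 21 members. The share of all 2888 genes with such a neighbour was not taken. After the values had been seen, 3 of these clusters were put together as a role group, so its spread and r depend on that pick. ZK813.3, ZK813.7 and ZK813.1 lie together on chromosome X (chrX:3441839-3446935, WBcel235), Y62H9A.5 lies beside ule-5 on X (chrX:11882144-11884042), and D1054.10 lies beside ule-3 on V (chrV:10791975-10794924). ule-3 and ule-5 take their names from the lumen of the uterus; the other 5 have no role given here. These 7 genes summed to 5419 TPM in replicate 1 of arcp-1 mutants, against 372 TPM in the lowest mutant library, and to 3193 TPM in replicate 1 of controls, against 510 TPM in the lowest control library. They had the widest spread of the role groups, with a median SD of 1.43 on the log2 scale around the genotype means, against 0.60 over all 200 members. They also kept the strongest relation without replicate 1, with a median r of -0.91 over the 7 genes. The neighbours were counted without regard to strand, but no exon of another gene overlaps theirs in the annotation.

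Cell division and nucleolar genes varied less. The 7 division genes were klp-19 and klp-16, kinesins of the spindle, spd-2 and spd-5 of the centrosome, the kinetochore protein knl-2, the securin ify-1, and rnr-1, a ribonucleotide reductase subunit. They summed to 136 to 404 TPM with a median of 180 in arcp-1 mutants and to 202 to 349 TPM with a median of 244 in controls. klp-19 had 86.5 to 319 normalized counts with a median of 131 in arcp-1 mutants and 63.7 to 368 with a median of 134 in controls. The 6 nucleolar members were nol-58, nol-56, the methyltransferase fibrillarin (fib-1), nucl-1, the pseudouridine synthase dkc-1, and nog-1. They summed to 333 to 1171 TPM with a median of 456 in arcp-1 mutants and to 505 to 679 TPM with a median of 598 in controls. Replicate 1 was the highest library of each genotype for both groups. Linker histones gave 2 members, hil-4 and hil-5, of 8 histone genes measured, beside 6.93% of all 2888 genes.

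Metabolic enzymes formed the next large block. In the family of lipid metabolism, 7 of 19 measured genes (36.8%) were members, among them the fatty acid synthase fasn-1, the elongase elo-1, the omega-3 desaturase fat-1 and the acyl-CoA synthetases acs-4 and acs-19. dhs-25, a short-chain dehydrogenase, was the most abundant of them by TPM, with 148 ± 47.1 TPM in arcp-1 mutants and 129 ± 43.1 TPM in controls, followed by acs-4 with 90.8 ± 37.3 TPM in arcp-1 mutants and 86.2 ± 23.8 TPM in controls (SD, n = 6 each). fasn-1 had 2395 normalized counts in replicate 1 of arcp-1 mutants and at most 655 in the other mutants, against 3772 in replicate 1 of controls and at most 658 in the other controls. The methionine cycle held 6 members: sams-1 and sams-3, which make the methyl donor S-adenosylmethionine, ahcy-1 and adk-1, which clear its products, metr-1, the methionine synthase, and mel-32, a serine hydroxymethyltransferase. ahcy-1, at 642 ± 524 TPM in arcp-1 mutants and 518 ± 310 TPM in controls (SD, n = 6 each), had 4527 normalized counts in replicate 1 of arcp-1 mutants and at most 1355 in the others, against 3887 in replicate 1 of controls and at most 1084 in the others.

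In these enzyme groups the relation leaned more on replicate 1. Without it, the median r was -0.41 over the methionine cycle members, with sams-1 at 0.32, and -0.47 over 8 fatty acid members. For 12 members of central carbon metabolism and respiration it was -0.48. These include cts-1, the citrate synthase, mdh-1 and mdh-2, malate dehydrogenases, aldo-2, an aldolase of glycolysis, and atp-2, the beta subunit of ATP synthase. aldo-2 had 637 to 2888 normalized counts with a median of 1155 in arcp-1 mutants and 757 to 4700 with a median of 1357 in controls. atp-2 moved little, at 1566 to 2334 with a median of 1655 in arcp-1 mutants and 1800 to 2249 with a median of 1923 in controls, but replicate 1 was again the highest in each genotype. Of 30 nuclear genes of the respiratory chain, 4 were members (13.3%), and of 11 genes of the mitochondrial genome none was, beside 6.93% of all 2888 genes.

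Pharyngeal and body wall muscle markers differed in how many were members. All 3 pharyngeal muscle markers that were measured, myo-1 and myo-2, myosin heavy chains of the pharynx, and tnc-2, a troponin C, were members, and the other 5 markers of the list, too low to be chosen, had r below 0. myo-2 had 270 in replicate 1 of arcp-1 mutants and at most 102 in the others, against 455 in replicate 1 of controls and at most 110 in the others. tnc-2 had 228 in replicate 1 of arcp-1 mutants and at most 141 in the others, against 411 in replicate 1 of controls and at most 109 in the others. Without replicate 1, myo-2 had r = -0.01 and myo-1 -0.02, so their relation to the index rested on those libraries, while tnc-2 kept -0.47. Of 15 measured body wall muscle markers only lev-11, a tropomyosin, was a member, although 9 of the 15 had r below 0. The median r of these 15 was -0.10. unc-54, the main myosin of body wall muscle, had r = 0.83, while unc-22 and unc-60 of the same list had -0.70 and -0.69.

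In the wider family of actins, myosins and tropomyosins, 9 of 23 genes (39.1%) were members. The most abundant of these by TPM were the myosin light chains mlc-1, at 355 ± 139.5 TPM in arcp-1 mutants and 332 ± 68.8 TPM in controls, and mlc-3, at 346 ± 143 TPM in arcp-1 mutants and 323 ± 90.3 TPM in controls (SD, n = 6 each). Members of the basement membrane and of tissue attachment were unc-52, the perlecan of muscle attachment, let-2, a chain of collagen IV, the papilin mig-6, and the attachment proteins let-805 and mua-3. unc-52 had 545 in replicate 1 of arcp-1 mutants and at most 211 in the others, against 632 in replicate 1 of controls and at most 243 in the others. Without replicate 1 the median r of these 5 genes was -0.12, the weakest of the role groups.

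**Figure D4:**
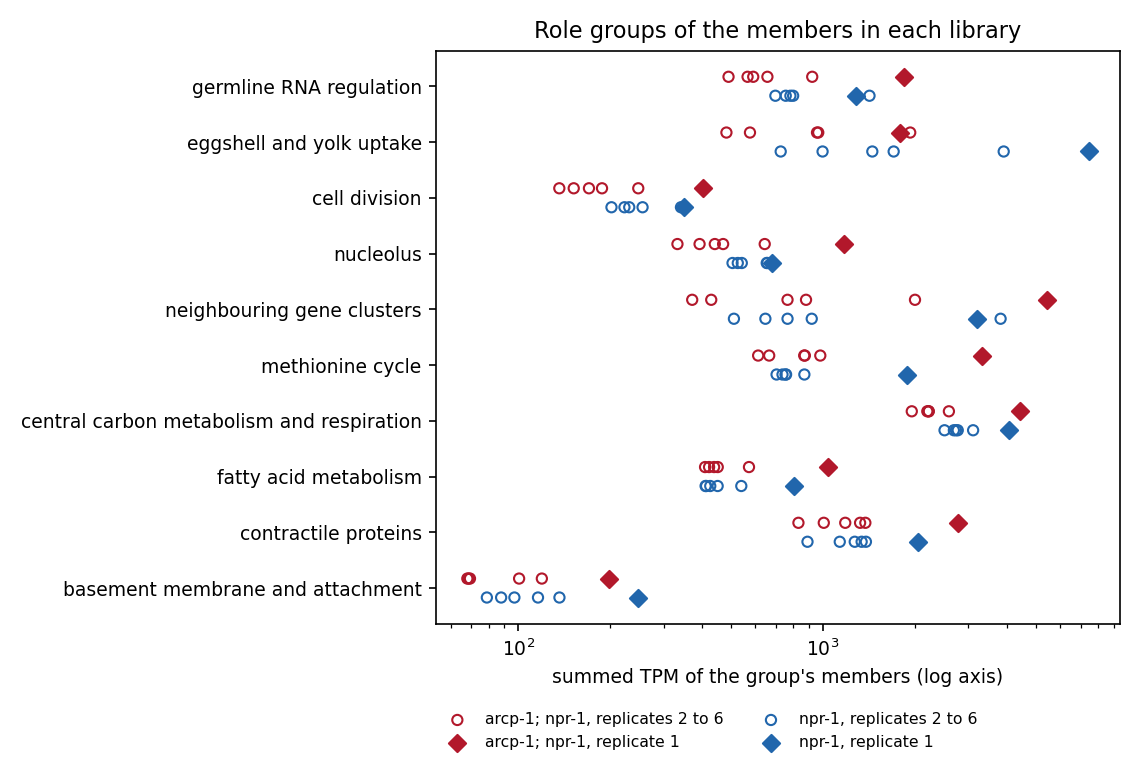
Summed TPM (log axis) of the members of 10 role groups, formed after the values were seen, in each library; red, arcp-1; npr-1, above blue, npr-1, with replicate 1 as filled diamonds and replicates 2 to 6 as open circles. The diamonds lie at the right end of most rows; exceptions are eggshell and yolk uptake in arcp-1; npr-1 (1783 TPM in replicate 1, 1932 TPM in the highest library) and, in npr-1, germline RNA regulation and the neighbouring gene clusters.

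By TPM, the highest members were eef-1A.1, perm-4 and rps-4. eef-1A.1, a translation elongation factor, had 4287 ± 1011 TPM in arcp-1 mutants and 4605 ± 795 TPM in controls, and rps-4, a protein of the small ribosomal subunit, 1276 ± 198 TPM in arcp-1 mutants and 1268 ± 172 TPM in controls (SD, n = 6 each). eef-1A.1 ran from 8512 to 15335 normalized counts in arcp-1 mutants and from 9031 to 13751 in controls. Of 75 ribosomal proteins, 3 were members (4%, beside 6.93% of all 2888 genes), rps-4, rpl-17 and rpl-11.1, and 59 of the 75 had r below 0. The rest of the 10 most abundant members were aldo-2, atp-2, ahcy-1, the C-type lectin clec-87, rpl-17, cts-1 and cpn-3, a calponin. Families with 2 to 4 members each were the chaperones (4 of 39, among them pdi-1 and hsp-3), translation factors (3 of 25), the proteasome (rpn-7 and pbs-2, 2 of 25) and the vacuolar ATPase (vha-12 and vha-15, 2 of 17). At 6.93% of all genes, families of this size would hold a few members by the rule alone.

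Genes of cilia were missing from the list. None of 47 genes of intraflagellar transport and cilia was a member, and 46 of the 47 had r above 0, with a median of 0.87. None of 19 neuropeptide genes and none of 11 tubulins was a member, but 5 of the 19 and 5 of the 11 had r below 0. With 6.93% of all 2888 genes chosen, families of this size would hold few members or none. Among cell type lists other than germline and pharyngeal or body wall muscle, no list gave a member: not intestine (0 of 4), hypodermis and seam (0 of 9), glia (0 of 1) or the lists of other neurons. These lists are small as well, so the absence of members alone does not set them apart from other genes. The median r was -0.47 over the 4 intestinal genes, of which 3 are yolk protein genes, and -0.46 over the 9 of hypodermis and seam. Of the 13 intestinal markers too low to be chosen, only 5 had r below 0, with a median of 0.15. Of the 10 low markers of hypodermis and seam, 7 had r below 0, with a median of -0.18.

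The members were also set beside the remaining genes with a mean of at least 100. All 200 are protein coding, their median exon length was 1876 bases against 1948, and their median level was 63.5 TPM against 72.6 TPM. Their median SD around the genotype means was 0.60 on the log2 scale, against 0.42. Chromosome III held 23% of the members and 16.7% of the 2888 genes, and X held 14% of the members and 13.6% of the genes. Of the 200, 56 share exonic bases with another gene in the annotation, on either strand. Since reads were counted without strand, reads in the shared bases cannot be told apart by strand, so these members' counts are less certain. Among the genes given values of their own, this applies to csr-1, lea-1, fln-1, klp-19, aldo-2, tnc-2, mlc-1, unc-52, eef-1A.1, rps-4, prg-1, decr-1.1, cts-1, rpn-7 and haly-1, and also to other members named in the role groups.

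The comparison of genotypes asks whether loss of arcp-1 changed these genes in the sorted cells. arcp-1 itself, an ankyrin repeat protein gene and no member, was lower in arcp-1 mutants, with a mean of 2477 normalized counts against 7947 in controls, a log2 fold change of -1.76 ± 0.40 (SE; limma, Benjamini-Hochberg adjusted p = 0.0308), and the ranges of the genotypes overlapped. All 200 members passed the filter of the test (at least 1 CPM in no fewer than 6 libraries). limma with Benjamini-Hochberg adjustment over 12096 genes called 1 member higher in arcp-1 mutants and 0 lower, beside 1.33% of all tested genes called higher and 0.331% called lower (1.66% in either direction). At an unadjusted p under 0.05 there were 8 members, 3 higher and 5 lower, and by that rule 10.4% of all tested genes were called. edgeR called 1 member higher and 0 lower, beside 1.64% of all tested genes in either direction, and DESeq2 1 higher and 1 lower, beside 3.34%. The standard errors use the same residuals by which the members were chosen, and their median was 0.31 over the members, against 0.24 over the genes with a mean of at least 100.

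The member called was decr-1.1, a homologue of the 2,4-dienoyl-CoA reductases that act in the breakdown of unsaturated fatty acids. It had 165 to 417 normalized counts with a median of 247 in arcp-1 mutants, against 72.2 to 152 with a median of 106 in controls. Every arcp-1 mutant library was above every control library, and 1.29% of all tested genes were separated in this direction. The log2 fold change was 1.24 ± 0.24 (SE; limma, Benjamini-Hochberg adjusted p = 0.0113; n = 6 each), and it stayed past the threshold with any library left out. decr-1.1 overlaps exons of F53C11.4, which was counted separately, with a mean of 102 normalized counts in arcp-1 mutants and 103 in controls (log2 fold change 0.09).

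aqp-7, an aquaglyceroporin of the membrane, was the only other member whose genotypes did not overlap. It had 323 to 527 normalized counts with a median of 420 in arcp-1 mutants, against 556 to 855 with a median of 631 in controls, and 0.661% of all tested genes were separated in this direction. Its log2 fold change was -0.66 ± 0.17 (SE), and it missed the threshold (limma, Benjamini-Hochberg adjusted p = 0.0616). With all 12 libraries kept, aqp-7 was past the threshold in DESeq2 (adjusted p = 0.00657). In limma it was past it with library weights (adjusted p = 0.00491), a replicate block (0.0151), TPM (0.0472) or only genes with a mean of at least 100 (0.0338). It was not in edgeR, nor in limma with other pseudocounts, no filter or quantile normalization. With both replicate 1 libraries left out, aqp-7 was also past it (adjusted p = 0.0172 in limma), as was the Piwi gene prg-1 (log2 fold change -0.89, adjusted p = 0.0274 in limma). Calls over all 12096 genes rose as well in that setting, to 371 with 73 of them lower, against 201 with 40 lower over all 12 libraries. Over all 12 libraries prg-1 had 61.3 to 229 normalized counts with a median of 94.8 in arcp-1 mutants, against 123 to 191 with a median of 159 in controls, and its ranges overlapped through replicate 1 of the mutants.

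**Figure D5:**
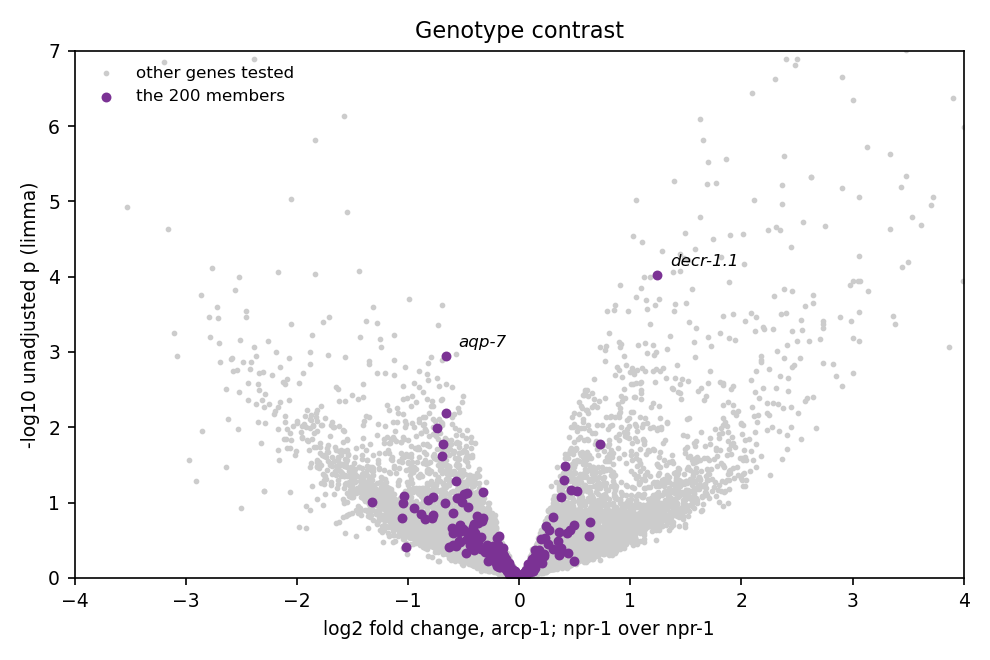
log2 fold change of arcp-1; npr-1 over npr-1 (x) against -log10 of the unadjusted limma p (y) for the 12096 genes tested (grey) and the 200 members (purple); 30 genes outside the axes, none of them a member, are not drawn. decr-1.1, at 1.24, is the member past the adjusted threshold, and aqp-7, at -0.66, lies closest to it on the other side.

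Over the 200 members the median log2 fold change was -0.12, with quartiles of -0.38 and 0.08, beside -0.02 over all tested genes and -0.0025 over those with a mean of at least 100. Of the members, 135 (67.5%) had a value below 0, against 52.2% of the tested genes. The lean was weaker in the count models. edgeR gave a median of -0.06 with 86 members above 0, and DESeq2 -0.06 with 85, against 65 above 0 in limma. The median over all tested genes was 0.02 in both edgeR and DESeq2. Members share their libraries' deviations, so these values are not independent of each other. Leaving out replicate 1 of arcp-1 mutants took the median to -0.34, and leaving out replicate 1 of controls took it to 0.03. By role, the median was -0.78 over the 6 eggshell and yolk uptake members, -0.47 over the 7 division members and -0.28 over the 12 germline RNA regulators, all of them below 0 in every member, and 0.16 over the 6 of the methionine cycle. None of these members was past the threshold; the lowest adjusted p among them was 0.357 in limma, for prg-1.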

How the data were processed

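BAG neurons were sorted and sequenced in 12 libraries, 6 of arcp-1 mutants and 6 of controls, grouped by the strain labels and described by the study as biological replicates. The authors filtered out ribosomal reads (Bowtie2), trimmed with Trim Galore, aligned to WS255 with STAR, kept reads of mapping quality 20 or more, and counted paired-end reads per gene with HTSeq without strand. The deposited signal values are these counts divided by the authors' DESeq2 size factors, and 100% of them were whole multiples of the value of 1 read (tolerance 0.01), which ranged from 0.294 to 6.40 normalized counts. For TPM, the authors deposited a table of 46766 genes. A deposited table of the authors' group means, fold changes, statistics, p and q values was not used.

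Genotypes were compared with limma 3.58.1 (R 4.3.3, trend) on log2(normalized count + 1) over the 12096 genes with a CPM of 1 or more in 6 or more libraries, with Benjamini-Hochberg adjustment and a threshold of 0.05. Fold changes on this scale understate those of low genes. On the recovered reads, edgeR 4.0.16 called 198 genes and DESeq2 1.42.0 called 404, against 201 in limma. No pair of replicates was alike within sampling noise (lowest chi-square per gene 4.29). Gene positions and exon overlaps came from the WBcel235 annotation, and no sequence was used here. PCR copies were not removed by molecular identifiers, so depth gives counting error only.

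The members and lists were chosen with earlier results of these data known. Genes were named by rule: the 10 lowest r, the 10 highest mean TPM, members past the threshold, the genes at the limit of the choice, and the 2 highest in TPM of each list or family with 2 or more members. The role groups, and further genes given as examples in them, were put together after the values were seen, as were some BAG markers, aqp-7 and prg-1. Alternatives were other pseudocounts, filters, scalings, tests and indices, a replicate block, and leaving out libraries.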

Additional observations from a re-analysis of the deposited data

Results flagged for a closer look

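A library stood far from the other 5 of its genotype, by Dixon's gap over range for 6 samples, in 16 of 96 groups examined, and in all 16 it was replicate 1 on the high side. Chance flags about 1 in 20 groups, and these genes were chosen by values that the same libraries set. In arcp-1 mutants the ratio was 0.733 for csr-1, 0.630 for lea-1, 0.791 for vps-13, 0.740 for glh-1 and 0.701 for ahcy-1. It was also 0.704 for vha-15 and 0.694 for vha-12, subunits of the vacuolar ATPase, 0.707 for atp-2 and 0.667 for unc-52. The share of all TPM held by the 200 members was flagged in arcp-1 mutants as well, at 0.635. In controls the ratio was 0.867 for ahcy-1, 0.803 for lea-1, 0.799 for myo-2, 0.658 for vha-12, 0.638 for cts-1 and 0.626 for rpn-7, a proteasome subunit. The source of these steps was not tested.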

How the results depend on the processing

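Membership depended on the libraries and on the limits. Of the 200 members, 126 stayed with a mean of at least 50, 130 with Spearman correlation and 24 with genotype and replicate number means subtracted. In calculations added after the data were seen, 89 stayed without replicate 1 of both genotypes and 43 in replicates 3 to 6 only. Leaving out 1 library kept 130 (without arcp-1 mutant replicate 1) to 192. The call of decr-1.1 held in all 23 alternatives, with log2 fold changes of 1.09 to 1.36 and adjusted p of 4.4e-05 to 0.0377. Library weights called 2 members higher and 3 lower, beside 351 and 133 of all 12096 genes. Members lower numbered 1 with a mean of at least 100, 1 with TPM, 1 with DESeq2 and 2 without replicate 1 of both genotypes, and aqp-7 was among them each time. Over all genes, these settings called 17 (of 2888), 35, 105 and 73 (of 12096 each) lower, against 40 in the main fit. Members lower numbered 0 to 4 with 1 library left out, and the 4, without arcp-1 mutant replicate 1, were aqp-7, ent-2, pccb-1 and prg-1. Without that library, 62 of all 12096 genes were called lower. The median log2 fold change ran from -0.34 to 0.03 with 1 library left out. With the replicate number as a block, 2 members were higher and 3 lower, beside 220 and 71 of all 12096 genes, and 291 genes were called against 201. Members at an unadjusted p under 0.05 in limma were 54 with the block and 8 without. The share of all genes at that p was not taken with the block. A block removes deviations that same-numbered libraries share, and the members were chosen on deviations of the same libraries. Over all genes the numbers did not meet the limit set for a paired design: deviations of same-numbered libraries had r of 0.04 to 0.32, 2 of 6 above 0.1, and 2 of 6 libraries correlated best with their own number. The index and the members' mean, however, ran alike over the 6 numbers in both genotypes (r = 0.99 each), and the members were chosen on these deviations. Over all genes, DESeq2 called 404 and library weights 484. The shallowest library had 374550 reads, where 1 read was 6.40 normalized counts, so low members are least certain there. The cause of these changes was not tested.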
